A study of Mus musculus with 28 samples.

Results

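The proteasome is the barrel-shaped protease that degrades ubiquitin-tagged proteins in every cell, and 34 of its subunits were followed here in mouse liver. They are the genes of a fixed list: 7 alpha subunits of the core (Psma1 to Psma7), 7 constitutive beta subunits (Psmb1 to Psmb7), 3 inducible beta subunits of the immunoproteasome (Psmb8, Psmb9 and Psmb10), 6 ATPases of the regulatory particle (Psmc1 to Psmc6), 3 other base subunits (Psmd1, Psmd2 and Psmd4) and 8 lid subunits (Psmd3, Psmd6, Psmd7, Psmd8, Psmd11, Psmd12, Psmd13 and Psmd14). Each gene was represented by its probe set of highest mean among those that name it alone, and all 34 had one, out of 18193 genes with such a probe set and 45037 probe sets in all.

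The core particle stacks rings of alpha subunits, which gate the channel, on rings of beta subunits, some of which carry the proteolytic sites. The regulatory particle on its end holds ATPases that unfold the substrate, and a lid that removes ubiquitin. In the liver this machine clears damaged and short-lived proteins, its genes can be raised together by Nfe2l1 (NRF1), and under interferon the beta subunits Psmb8, Psmb9 and Psmb10 take the place of Psmb5, Psmb6 and Psmb7, which alters the peptides made for MHC class I.

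Female C3H/HeN mice, wild-type (WT) or deficient in CAR (Nr1i3, a nuclear receptor that induces detoxification genes), entered the study at 5 weeks of age and received a Lieber's isocaloric liquid diet, 1 week ad libitum and then 4 weeks at 12 g per day. The diet was without ethanol (control), with ethanol (EtOH), with ethanol plus ellagic acid (EtOH + EA) or with ethanol plus trans-resveratrol (EtOH + RSV), each polyphenol at about 50 mg per kg per day. Liver RNA was hybridized to Affymetrix mouse arrays, 4 for each diet in WT mice and 3 for each diet in CAR-deficient mice, 28 in all. The study asked which transcripts follow the relief of alcoholic fatty liver by the polyphenols and whether this needs CAR. How the CAR gene was disrupted is not given in the sources used here. The Nr1i3 probe set read 9.53 on average in WT and 8.92 in CAR-deficient arrays, which appear to be on separate scales, so it does not check the deletion.

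The values are on a log2 scale and were summarised by the authors with Distribution Free Weighting (DFW), which rescales each probe set. This appears to have been done apart for the 2 genotypes. A difference given below is therefore a difference of DFW values, not a calibrated log2 fold change, and levels were not compared between genotypes. A probe set whose standard deviation (SD) over the arrays of a genotype is at most 0.01 is called compressed, which held for 85.3% of all probe sets in WT and 79.3% in CAR-deficient arrays. Among the 34 subunits it held for 9 in WT (Psma3, Psma6, Psmb1, Psmb2, Psmb7, Psmb10, Psmc1, Psmd3 and Psmd8) and for 1 in CAR-deficient mice (Psma4). Diets were compared by limma with all diets of a genotype in 1 fit, and p was adjusted over all probe sets with a threshold of 0.05. The arrays of a genotype correlated closely, with a median r to the others of 0.9915 to 0.9964 in WT and 0.9829 to 0.9944 in CAR-deficient mice. The lowest were control replicate 1 in WT, which also had the largest 3' to 5' difference of the Gapdh control probe sets (0.757, against 0.385 to 0.536 on the other WT arrays), and EtOH replicate 1 and EtOH + RSV replicate 3 in CAR-deficient mice. Hepatocyte markers were high on all arrays, with a mean of 9 measured markers between 13.1 and 13.3 in WT.

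In WT liver the calls among the subunits on the EtOH diet were all in 1 direction. Of the 34 subunits, 7 were higher than on the control diet and none was lower (limma, adjusted p from 0.0032 to 0.022), where 2.2% of all probe sets were called higher and 3.35% lower, and 2.99% of the represented genes higher. They were the core beta subunits Psmb2, Psmb4 and Psmb5, the ATPases Psmc4 and Psmc5, and the lid subunits Psmd13 and Psmd14. The mean was higher for 30 of 34 subunits, against 54.1% of all probe sets, and the median difference was 0.048, against 2e-05 over all probe sets. Among the 25 subunits that were not compressed, 6 were called higher and the median difference was 0.091, against 6.69% called higher and a median of -0.037 over the represented genes that were not compressed.

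Psmb5 carries the chymotrypsin-like site of the constitutive core. Its DFW value was 10.35, 10.38, 10.41 and 10.46 on the control arrays and 10.67, 10.65, 10.62 and 10.63 on the EtOH arrays. The groups did not overlap, and the EtOH arrays lay closer together than those of any other diet. The difference was 0.24 ± 0.043 (SE, n = 4 and 4, adjusted p = 0.0093 by limma).

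Psmc5 and Psmc4 are ATPases of the ring that threads substrates into the core. Psmc5 showed the largest difference of the 34 subunits, from 9.32, 9.38, 9.34 and 9.47 on the control arrays to 9.64, 9.79, 9.64 and 9.60 with EtOH, or 0.29 ± 0.042 (SE, limma adjusted p = 0.0032). Psmc4 went from 8.96, 9.004, 8.92 and 9.04 to 9.16, 9.36, 9.23 and 9.23, or 0.27 ± 0.041 (limma adjusted p = 0.0047). In both genes each EtOH array exceeded each control array, with EtOH replicate 3 the highest. A second Psmc4 probe set was compressed and not called (0.0087, limma adjusted p = 0.08).

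Psmd14 is the deubiquitinase of the lid, which cuts ubiquitin chains from the substrate. It read 9.83, 9.76, 9.69 and 9.71 on the control arrays and 9.93, 9.98, 9.97 and 9.89 with EtOH, a difference of 0.20 ± 0.034 (limma adjusted p = 0.008). Its lid neighbour Psmd13 read 8.56, 8.53, 8.64 and 8.63 on the control arrays and 8.93, 8.79, 8.69 and 8.77 with EtOH (0.21 ± 0.042, limma adjusted p = 0.015). Neither gene overlapped between the diets, and EtOH replicate 4 of Psmd13 came closest to the control arrays. A second, compressed probe set of Psmd13 was called higher too (0.00041, limma adjusted p = 0.011), whereas its 2 others, also compressed, were not.

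The core beta subunits Psmb4 and Psmb2 moved least. Psmb4 lay at 10.84, 10.81, 10.84 and 10.82 on the control arrays and at 10.93, 10.93, 10.91 and 10.86 with EtOH (0.078 ± 0.016, limma adjusted p = 0.019). Its second probe set, of lower level, differed by 0.17 and missed the threshold (limma adjusted p = 0.057). Psmb2 was compressed, at 9.64 on all 16 arrays, and its difference of 0.000201 (limma adjusted p = 0.022) cannot be read as a size. In all 7 the EtOH arrays lay wholly above the control arrays. These genes were picked by their call on the same arrays, so the separation is no further support. The share of 7.54% of the represented genes with such a separation holds for genes not picked in this way.

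**Figure D1:**
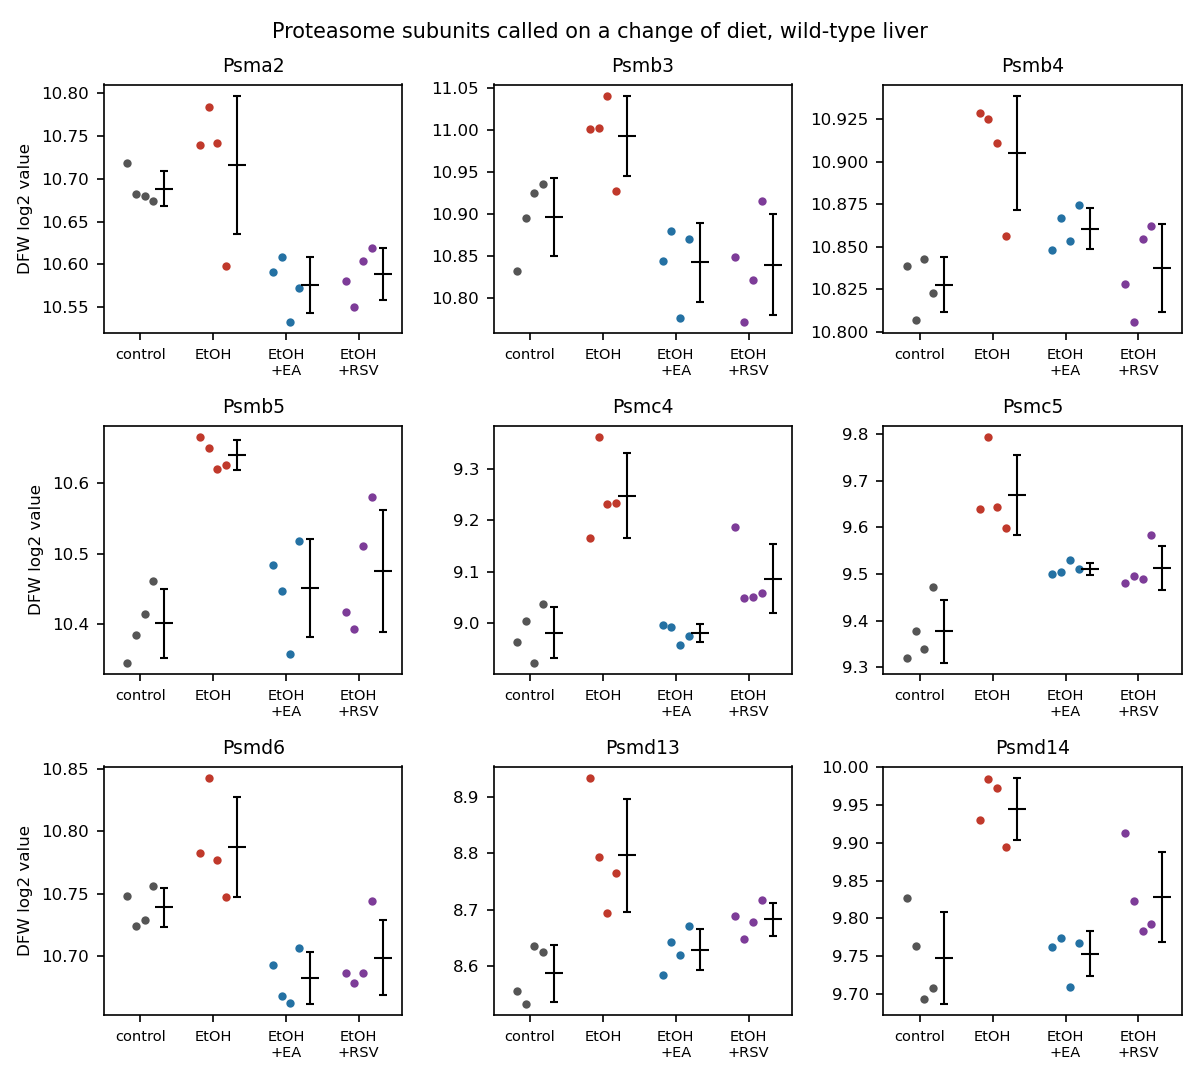
DFW log2 value of the 9 subunits called in a comparison of EtOH with control, EtOH + EA with EtOH or EtOH + RSV with EtOH, without the compressed Psmb2, in WT liver. Each point is 1 array, the bar beside it is the mean ± SD of 4 arrays, and each panel has its own vertical range, which does not start at 0. The EtOH arrays of Psmb5, Psmc4, Psmc5, Psmd13 and Psmd14 lie above all control arrays, and the EtOH + EA arrays of Psmc4 and Psmd14 lie back at the control level.

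The subcomplexes differed in how many members were called. With EtOH, 3 of 7 constitutive beta subunits, 2 of 6 ATPases and 2 of 8 lid subunits were called higher, and 0 of 7 alpha subunits, 0 of 3 base subunits and 0 of 3 immunoproteasome subunits. The median difference was 0.17 for the ATPases, 0.078 for the beta subunits, 0.048 for the lid, 0.027 for the alpha subunits, 0.023 for the other base subunits and 0.009 for the immunoproteasome. Without the compressed members the order changed, with 0.21 for the ATPases, 0.1 for the beta subunits, 0.069 for the lid, 0.04 for the immunoproteasome, 0.032 for the alpha subunits and 0.023 for the other base subunits. The alpha subunits, whose N termini form the gate, ranged from -0.033 (Psma4) to 0.12 (Psma7), and none had an unadjusted p under 0.05, although 6 of 7 means were higher. The scaffold subunits of the base, Psmd1 and Psmd2, differed by -0.0032 and 0.023 (limma adjusted p = 0.99 and 0.11), and the ubiquitin receptor Psmd4 by 0.15 (limma adjusted p = 0.3). Whether the subcomplexes differ from each other was not tested.

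The 4 EtOH arrays were not alike. Over the 25 subunits not compressed, the median deviation from the control mean was 0.12 on EtOH replicate 1, 0.21 on replicate 3, 0.083 on replicate 4 and 0.0022 on replicate 5, against -0.017 to 0.016 on the control arrays. All 25 subunits stood above their control mean on replicate 1, 23 on replicate 3 and 22 on replicate 4, but 13 on replicate 5. The same counts were not made over other genes, so whether they are particular to the subunits was not tested. On replicate 5 the 5 measured alpha subunits were all below their control mean, for instance Psma7 at 10.23 against 10.77, 10.86 and 10.53 on the other EtOH arrays and 10.40 to 10.58 on the control arrays. Psmb5, Psmc4, Psmc5, Psmd13 and Psmd14 were nevertheless high on this array, and all 5 kept the call in each of the 16 fits that left out 1 array. With only the EtOH and control arrays in the fit, Psmb5 alone of them was still called (limma adjusted p = 0.024), and Psmc4, Psmc5, Psmd14 and Psmd13 were not (limma adjusted p = 0.059, 0.062, 0.061 and 0.12). Without EtOH replicate 5, 12 subunits were called higher.

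**Figure D2:**
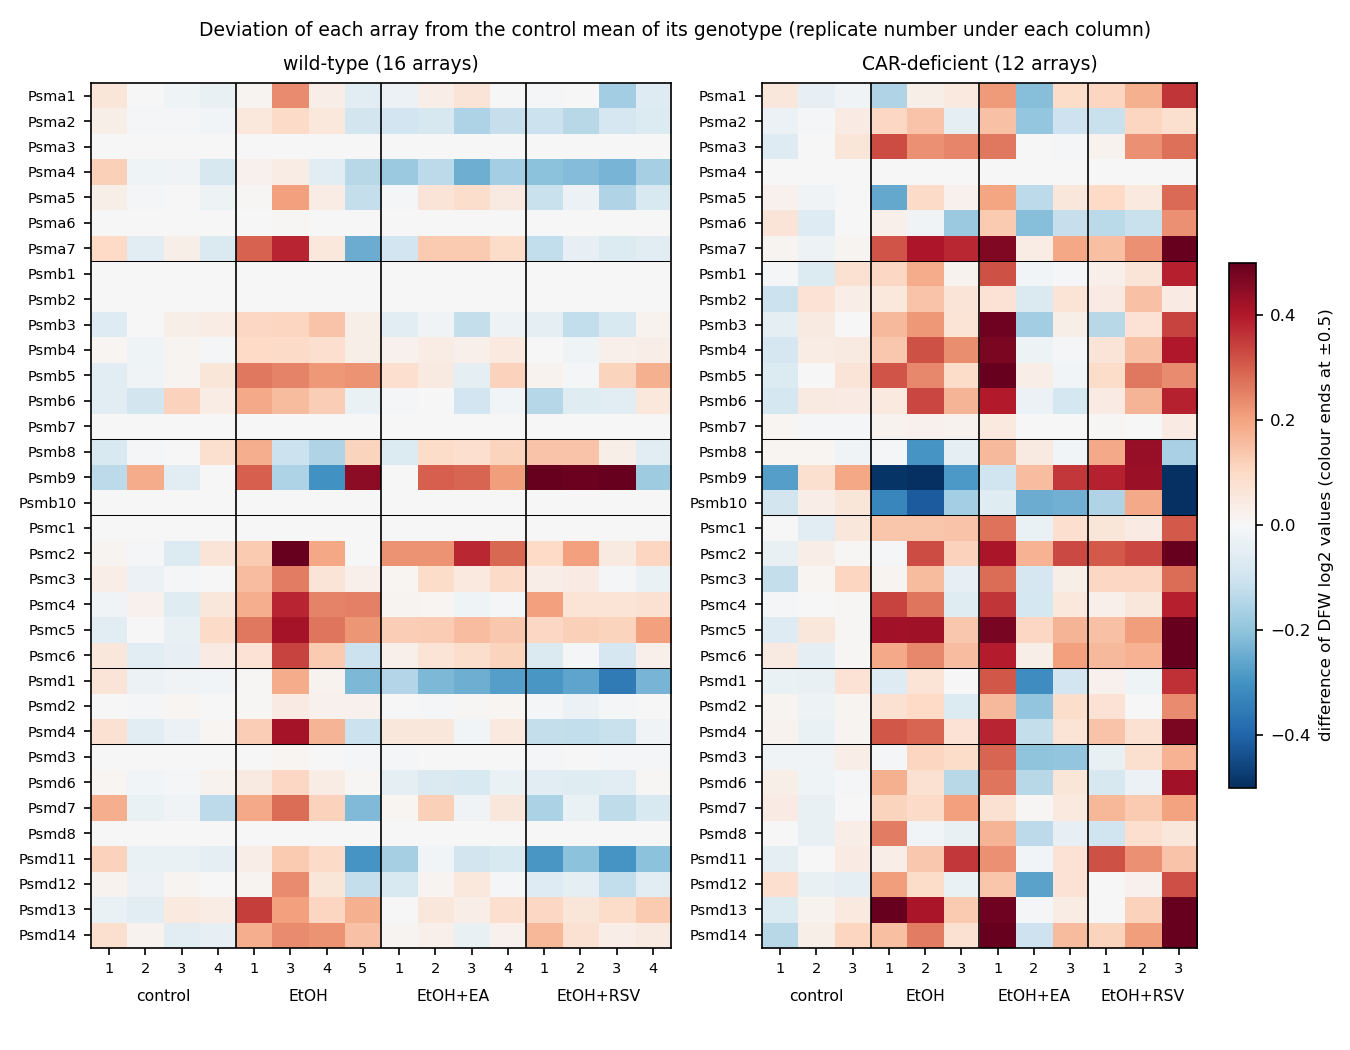
Deviation of each array from the mean of the control arrays of its genotype, in DFW log2 units (colour scale, ending at 0.5 in each direction), for 34 subunits (rows, ordered by subcomplex) on 16 WT and 12 CAR-deficient arrays (columns, with replicate numbers). In WT the red cells gather on EtOH replicates 1, 3 and 4, and the 9 compressed subunits stay white. In CAR-deficient liver the subunits outside the immunoproteasome are redder on EtOH + EA replicate 1 and EtOH + RSV replicate 3 than on the other arrays of those diets.

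Nfe2l1 and its partners were measured on the same arrays. Nfe2l1, the activator of proteasome genes, was called higher with EtOH, but its probe set was compressed (0.000298, limma adjusted p = 0.037). Nfe2l2 (NRF2), which drives antioxidant genes, was lower, at 9.74, 9.80, 9.62 and 9.35 with EtOH against 9.89, 10.24, 10.19 and 10.20 on the control diet (-0.50 ± 0.12, limma adjusted p = 0.03). The groups did not overlap. Of the 6 measured regulators (Nfe2l1, Nfe2l2, Ngly1, Maff, Mafg and Mafk), 1 was called higher and 1 lower, and Ddi2 had no probe set of its own.

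Both factors act through the antioxidant response element, whose core was searched as TGACNNNGC on both strands of the RefSeq promoter windows (GRCm38.p6), which run from 250 bases before to 50 after the start of the gene. A window was found for 28 of the 34 subunits, with a second one for Psma6 and Psmc2. The letters occurred in 4 of the 28 (14.3%), against 12.4% of 32851 windows of all genes, and in 1 of 9 subunits with a window among those called in EtOH against control or a polyphenol against EtOH. The matches lay 47 bases before the start in Psmb5, 9 in Psmb6, 227 in Psmc6 and 247 in Psmd12. The CCAAT box, searched as CCAAT, was found in 39.3% of the subunits and 37.4% of all windows, and the interferon motifs TTCNNNGAA (GAS) and the interferon-stimulated response element (ISRE) in 7.14% each, against 8.3% and 3.44%. A match is a description, not a bound site. The windows of Psmb5, which was called and holds the core in capitals, of Psmb6, which holds it nearest to its start, and of Psmc4 and Psmd14, which were called in 2 comparisons without it, are printed below, 5' to 3' on the strand of the gene.
Psmb5 (chr14:54617946-54618245, minus strand): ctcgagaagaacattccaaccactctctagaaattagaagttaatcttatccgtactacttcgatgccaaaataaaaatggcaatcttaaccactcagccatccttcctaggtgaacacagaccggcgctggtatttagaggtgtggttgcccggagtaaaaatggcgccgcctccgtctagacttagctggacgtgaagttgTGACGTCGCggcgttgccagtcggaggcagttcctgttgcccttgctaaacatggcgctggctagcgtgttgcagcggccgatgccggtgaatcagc
Psmb6 (chr11:70525107-70525406, plus strand): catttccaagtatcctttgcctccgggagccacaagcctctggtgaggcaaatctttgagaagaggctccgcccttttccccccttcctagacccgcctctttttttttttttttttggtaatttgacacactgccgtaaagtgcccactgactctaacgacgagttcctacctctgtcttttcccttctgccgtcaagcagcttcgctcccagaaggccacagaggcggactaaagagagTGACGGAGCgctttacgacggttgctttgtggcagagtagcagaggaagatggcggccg
Psmc4 (chr7:28050043-28050342, minus strand): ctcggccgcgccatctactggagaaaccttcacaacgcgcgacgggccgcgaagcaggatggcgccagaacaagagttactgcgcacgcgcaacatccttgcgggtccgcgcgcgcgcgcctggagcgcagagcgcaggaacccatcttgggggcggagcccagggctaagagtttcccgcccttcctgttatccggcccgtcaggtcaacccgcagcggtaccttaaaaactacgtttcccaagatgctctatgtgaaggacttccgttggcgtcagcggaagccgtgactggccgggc
Psmd14 (chr2:61711444-61711743, plus strand): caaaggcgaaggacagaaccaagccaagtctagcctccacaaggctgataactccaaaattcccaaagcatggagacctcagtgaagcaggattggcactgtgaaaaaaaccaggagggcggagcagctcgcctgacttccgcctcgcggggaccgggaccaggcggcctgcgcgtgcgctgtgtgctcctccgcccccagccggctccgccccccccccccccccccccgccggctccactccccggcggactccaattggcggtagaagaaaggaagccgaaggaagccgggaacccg

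With ellagic acid added to ethanol, part of these transcripts was lower. In EtOH + EA against EtOH, 7 of 34 subunits were lower and none was higher (limma), where 1.1% of all probe sets were called higher and 1.26% lower, and 1.64% of the represented genes lower. They were the alpha subunit Psma2, the beta subunits Psmb2, Psmb3 and Psmb5, the ATPase Psmc4 and the lid subunits Psmd6 and Psmd14. Of these only Psmb2 was compressed, and 5.6% of the represented genes that were not compressed were called lower. Over all 71 probe sets that name a subunit alone, 8 were called lower, and 1 that does not represent its gene was called higher. The mean was lower for 29 of 34 subunits, against 50.7% of all probe sets, and the median difference was -0.047, against -2.55e-06 over all probe sets. This comparison shares its EtOH arrays with EtOH against control, so a high EtOH mean enters both, and the opposite signs in the 2 comparisons are not separate observations.

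Psmc4 showed the largest difference. It read 8.997, 8.99, 8.96 and 8.98 with EtOH + EA, below each of the EtOH arrays and within the range of the control arrays (-0.27 ± 0.041, SE, n = 4 and 4, limma adjusted p = 0.0085). Psmd14 read 9.76, 9.77, 9.71 and 9.77 with EtOH + EA, again below all EtOH arrays and within the control range (-0.19 ± 0.034, limma adjusted p = 0.015). For Psmb5 the EtOH + EA arrays stood at 10.48, 10.45, 10.36 and 10.52, all below the EtOH arrays and overlapping the control arrays (-0.19 ± 0.043, limma adjusted p = 0.041).

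Psmd6, a structural subunit of the lid, fell from 10.78, 10.84, 10.78 and 10.75 with EtOH to 10.69, 10.67, 10.66 and 10.71 with EtOH + EA, below the control arrays too, which lay at 10.75, 10.72, 10.73 and 10.76 (-0.10 ± 0.02 against EtOH, limma adjusted p = 0.018). Psmb3, a beta subunit without a proteolytic site, read 11.00, 11.00, 11.04 and 10.93 with EtOH and 10.84, 10.88, 10.78 and 10.87 with EtOH + EA, with 10.83, 10.90, 10.92 and 10.94 on the control diet (-0.15 ± 0.035 against EtOH, limma adjusted p = 0.046). Psma2 read 10.74, 10.78, 10.74 and 10.60 with EtOH and 10.59, 10.61, 10.53 and 10.57 with EtOH + EA (-0.14 ± 0.033, limma adjusted p = 0.047). Psmd6 and Psmb3 did not overlap between EtOH and EtOH + EA, while in Psma2 EtOH replicate 5 fell among the EtOH + EA arrays. The compressed Psmb2 differed by -0.000226 (limma adjusted p = 0.021), and this sign turned after quantile normalization of the arrays (0.0105, not called).

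In 8 subunits, against 6.05% of the represented genes, the EtOH + EA arrays lay wholly below the EtOH arrays. Not every subunit called higher with EtOH was also called lower with EtOH + EA, although the means were lower. Psmc5 read 9.50, 9.50, 9.53 and 9.51 with EtOH + EA, below all EtOH and above all control arrays, and missed the threshold against EtOH (-0.16 ± 0.042, limma adjusted p = 0.071). Psmd13 (-0.17, limma adjusted p = 0.062) and Psmb4 (-0.045, limma adjusted p = 0.2) missed it as well. A second Psmb4 probe set differed by 0.014 (limma adjusted p = 0.94) and so did not share the negative sign of the first. The count of 7 depended on single arrays: leaving out 1 array gave 1 to 10 lower subunits, 1 without EtOH + EA replicate 3, 3 without EtOH replicate 1 or EtOH + EA replicate 1 or 2, 4 without EtOH replicate 3, EtOH + EA replicate 4, EtOH + RSV replicate 3 or control replicate 2 or 3, and 10 without EtOH replicate 5. Psmc4 kept its call in all 16 of these fits and Psmd14 in 15, against 2 for Psma2, 4 for Psmb3 and 5 for Psmb5. With only the 2 diets compared in the fit, none was called.

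With resveratrol in place of ellagic acid, no subunit passed the threshold against EtOH (limma, lowest adjusted p = 0.078, for Psmd6), where 0.155% of all probe sets were called higher and 0.209% lower. Over all 71 probe sets that name a subunit alone, 1 that does not represent its gene was called higher and 0 were called lower. Most means were nevertheless lower: 32 of 34, against 47.8% of all probe sets, with a median difference of -0.12, against 9.09e-06 over all probe sets, and 22 subunits had an unadjusted p under 0.05, as did 17.4% of the represented genes. The EtOH + RSV arrays lay wholly below the EtOH arrays in 8 subunits (Psma4, Psmb3, Psmb5, Psmc5, Psmd1, Psmd2, Psmd6 and Psmd8), against 3.5% of the represented genes. Only Psmb8 and Psmb9 had a higher mean. Without EtOH replicate 5, 7 subunits were called lower, and 3 without EtOH + RSV replicate 4. The rank product, the method the study names, gave 7 lower subunits and 1 higher, where it called 2.41% of all probe sets lower and 1.9% higher. It ranks differences without regard to the spread of a probe set, and on simulated data with unequal spread it also called many probe sets that had not been changed, so its counts are given only beside those of limma.

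The EtOH + RSV arrays of the members called above are given for comparison. Psmc4 read 9.19, 9.05, 9.05 and 9.06 and Psmd14 read 9.91, 9.82, 9.78 and 9.79, so that in both genes replicate 1 lay among the EtOH arrays (-0.16 and -0.12 against EtOH, limma adjusted p = 0.11 and 0.15). Psmb5 read 10.42, 10.39, 10.51 and 10.58, all below the EtOH arrays but spread over a wider range than on any other diet (-0.16, limma adjusted p = 0.11). Psmc5 read 9.48, 9.50, 9.49 and 9.58, also all below them (-0.16, limma adjusted p = 0.12). The 2 polyphenols differed in no subunit when set against each other (limma, 0 called of 34), where 0.00666% of all probe sets were called higher and 0.0178% lower with EtOH + EA. Of the subunits, 2 had an unadjusted p under 0.05, as did 8.78% of all probe sets, and the rank product gave 5 higher and 2 lower, where it called 1.84% of all probe sets higher and 1.49% lower. That comparison does not show that they act alike.

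**Figure D3:**
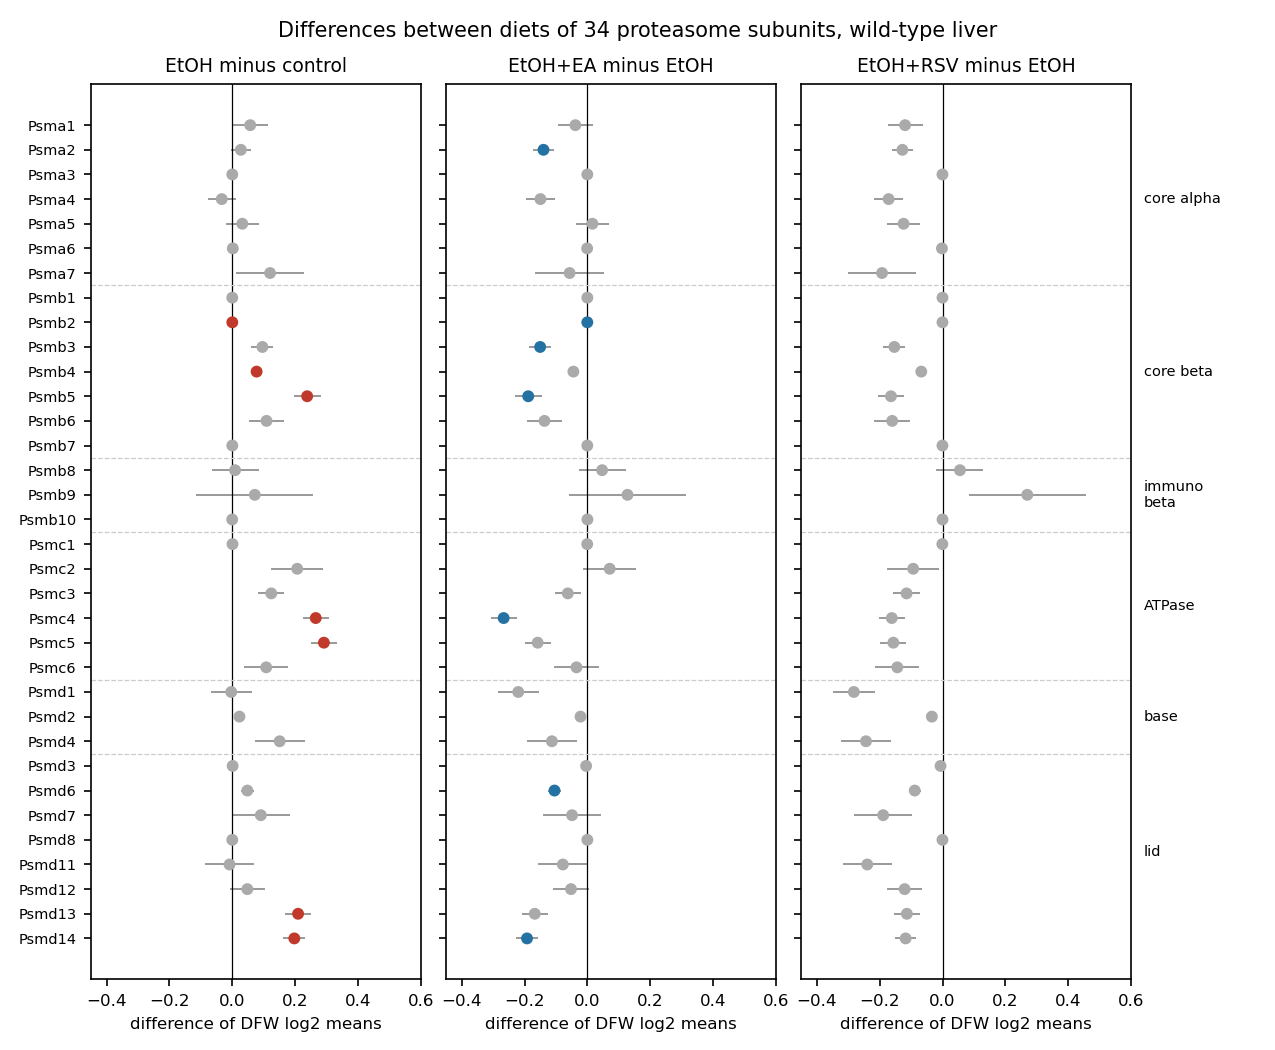
Difference of the DFW log2 means ± SE (n = 4 and 4 arrays) of the 34 subunits in WT liver for EtOH minus control, EtOH + EA minus EtOH and EtOH + RSV minus EtOH, ordered by subcomplex. Red marks subunits called higher, blue those called lower and grey those not called by limma at an adjusted p of 0.05. In the panel of EtOH against control 7 subunits are red, in that of EtOH + EA 7 are blue, and in that of EtOH + RSV none is coloured although 32 lie below 0.

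Against the control diet the polyphenol arrays left a mixed picture. With EtOH + EA, 1 subunit was higher and 3 were lower (limma), where 6.06% of all probe sets were called higher and 8.15% lower. Over all 71 probe sets that name a subunit alone, 5 were called higher and 3 lower. The ATPase Psmc2 was higher by 0.28 (11.32, 11.32, 11.47 and 11.38 against 11.11, 11.08, 11.02 and 11.16, limma adjusted p = 0.043), and its probe set is of a type that can match other transcripts. The base scaffold Psmd1 was lower by 0.22 and the alpha subunits Psma4 and Psma2 by 0.18 and 0.11 (limma adjusted p = 0.04, 0.018 and 0.039). With EtOH + RSV, Psmc5 was higher by 0.14 (limma adjusted p = 0.039), where 9.07% of all probe sets were called higher, and Psmd1, Psmd11, Psma4 and Psma2 were lower by 0.29, 0.25, 0.2 and 0.1 (limma adjusted p = 0.011, 0.043, 0.0087 and 0.049), where 10.7% were called lower. Psmd11 has 8 probe sets, and that of largest SD was not called with EtOH + RSV (limma adjusted p = 0.81). Over all 71 probe sets that name a subunit alone, 3 were called higher and 4 lower with EtOH + RSV. The shares over all probe sets are near or above those of the subunits, so the counts say little about the subunits as a group.

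Psmd1 and Psma4, like Psma2, were thus called lower with either polyphenol than on the control diet, though not with EtOH alone. Psmd1 stood at 10.56, 10.46, 10.47 and 10.48 on the control diet, at 10.50, 10.68, 10.51 and 10.27 with EtOH, at 10.34, 10.27, 10.25 and 10.22 with EtOH + EA and at 10.20, 10.23, 10.14 and 10.26 with EtOH + RSV. Psma4 stood at 11.10, 10.95, 10.96 and 10.90, at 11.00, 11.01, 10.92 and 10.84, at 10.79, 10.84, 10.73 and 10.81 and at 10.77, 10.76, 10.74 and 10.81 in the same order of diets. All 8 polyphenol arrays lay below all 4 control arrays in both genes, and EtOH replicate 5 was the lowest EtOH array in both. Of the represented genes, 14.1% lay wholly below the control arrays with EtOH + EA and 13.2% with EtOH + RSV. The 2 comparisons share the control arrays. When 1 array was left out, Psma4 kept its call in 15 of 16 fits with EtOH + EA (all but that without EtOH + EA replicate 3) and Psmd1 in 5, and both kept it in all 16 with EtOH + RSV. The count lower with EtOH + EA was 1 without any one control array or EtOH + EA replicate 4 and 0 without EtOH + EA replicate 3, and that lower with EtOH + RSV was 2 without any one control or EtOH + RSV array, EtOH replicate 1 or EtOH + EA replicate 2, 3 or 4. Psmc2 kept its call in 3 of 16 such fits, Psmc5 in 6 and Psmd11 in 4. Psma2 kept its call in 9 of 16 with EtOH + EA and in 2 of 16 with EtOH + RSV.

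None of the immunoproteasome subunits was called. Psmb8, Psmb9 and Psmb10 passed the limma threshold in no comparison of diets in either genotype. In WT, Psmb9 read 8.06, 8.37, 8.13 and 8.19 on the control diet, 8.48, 8.03, 7.88 and 8.63 with EtOH, 8.19, 8.48, 8.48 and 8.40 with EtOH + EA and 8.73, 8.68, 8.70 and 8.01 with EtOH + RSV. Its SD over the 16 arrays, 0.27, was the largest of the 34 subunits. On the EtOH arrays Psmb8, like Psmb9, was high on replicates 1 and 5 (8.72 and 8.65) and low on replicates 3 and 4 (8.43 and 8.39). Psmb10 was compressed at 8.89.

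Of their constitutive counterparts Psmb5 was called and the others were not. Psmb5, the counterpart of Psmb8, had means of 10.40, 10.64, 10.45 and 10.48 on control, EtOH, EtOH + EA and EtOH + RSV, against 8.54, 8.55, 8.59 and 8.60 for Psmb8. Psmb6, the counterpart of Psmb9, had means of 10.74, 10.85, 10.71 and 10.69, with a difference of 0.11 for EtOH against control (limma adjusted p = 0.29), against 8.19, 8.26, 8.39 and 8.53 for Psmb9. Psmb7, the counterpart of Psmb10, was compressed at 8.55. Each value is relative to its own probe set, so levels of the 2 partners cannot be compared as amounts.

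**Figure D4:**
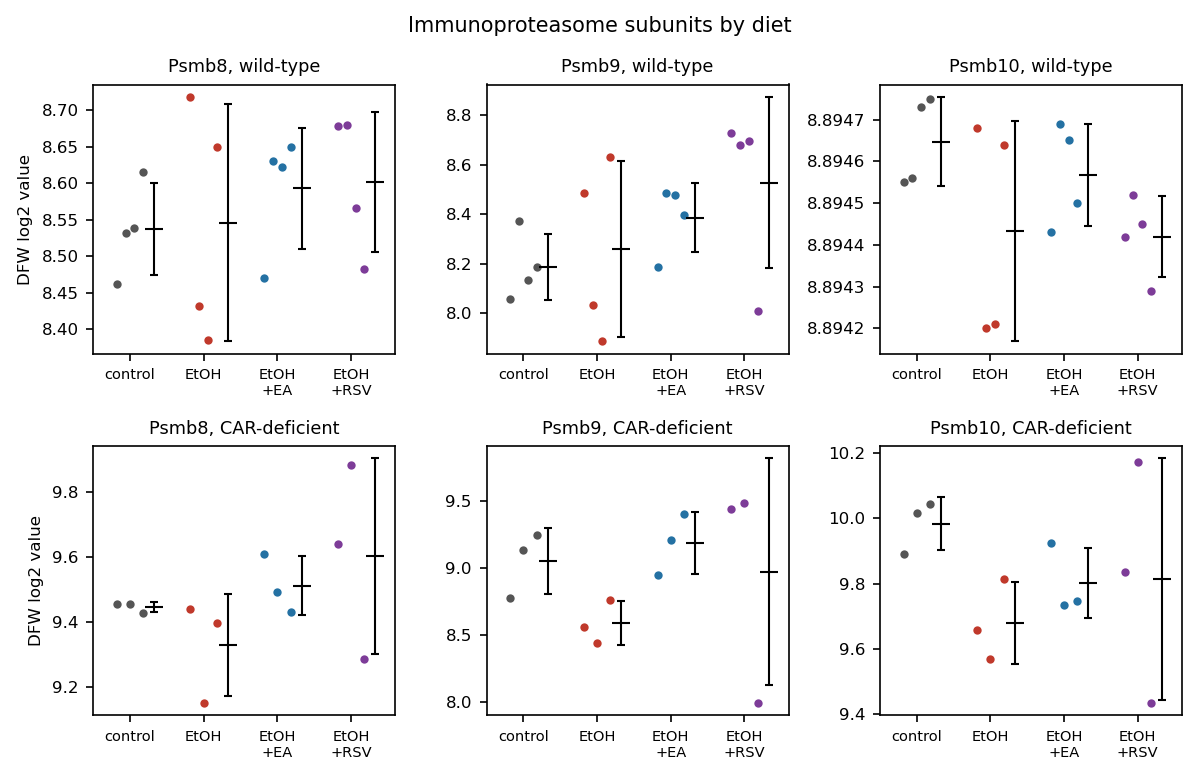
DFW log2 values of Psmb8, Psmb9 and Psmb10 by diet in WT (upper row) and CAR-deficient liver (lower row). Each point is 1 array, the bar beside it is the mean ± SD of 4 or 3 arrays, and each panel has its own vertical range (that of Psmb10 in WT spans less than 0.001). The arrays of a diet spread widely, as in EtOH + RSV, where 1 array of Psmb9 lies far below the others in each genotype.

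Psmb8 and Psmb9 lie next to the peptide transporter genes Tap1 and Tap2 on chromosome 17, in the order Psmb9, Tap1, Psmb8, Tap2. Tap1 and Tap2 were compressed in WT and not called in the comparisons with EtOH. Of the 9 measured genes of interferon response and antigen presentation, none was called with EtOH and 1 with EtOH + EA against EtOH: Nlrc5, the transactivator of MHC class I and immunoproteasome genes, was higher (8.00 against 7.39, difference 0.61 ± 0.075, limma adjusted p = 0.0048). Its arrays stood at 7.90, 7.99, 8.04 and 8.07, above the EtOH and the control arrays.

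Other parts of the ubiquitin system held few called genes. Uba6, an E1 enzyme that activates ubiquitin, was lower with EtOH (8.15, 8.02, 7.98 and 8.04 against 8.22, 8.25, 8.34 and 8.31, limma adjusted p = 0.017) and lower still with EtOH + EA against EtOH (-0.29, limma adjusted p = 0.011). It was the only gene of the 6 in the list of ubiquitin genes and E1 enzymes with a probe set of its own. Of the 8 assembly chaperones, Psmg2 was lower with EtOH by 0.17 (limma adjusted p = 0.034) and the maturation factor Pomp was higher, compressed, by 0.000185 (limma adjusted p = 0.034). Of the 8 measured shuttles and unfoldase genes none was called with EtOH, and the ubiquitin receptors Rad23b and Ubqln1 were lower with EtOH + EA against EtOH by 0.19 each (limma adjusted p = 0.016 and 0.0057). None of the 4 measured activators and inhibitors (Psme1, Psme3, Psme4 and Psmf1) and none of the 6 other proteasome subunits and bound enzymes was called in the comparisons of EtOH with control or of a polyphenol with EtOH. The mean was higher with EtOH than on control for 4 of 4 activators and inhibitors, 6 of 8 chaperones and 7 of 8 shuttles. With EtOH + EA it was lower than with EtOH for 4 of 4, 7 of 8 and 6 of 8. The shares over all probe sets given above apply here too. Averaged over a list, EtOH and control arrays overlapped. They read 9.12 to 9.14 and 9.10 to 9.14 for activators and inhibitors, and 8.82 to 8.83 and 8.82 to 8.85 for chaperones. The shuttles read 9.40 to 9.54 and 9.44 to 9.45. Whether these lists differ from the subunits was not tested.

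Whole liver was measured, and fewer cells of a type and less RNA per cell cannot be told apart in it. The markers of Kupffer cells, the resident macrophages, moved with EtOH as well: 8 of 12 were lower than on the control diet (limma) and none was higher, and their mean level was 8.30 to 8.41 on the EtOH arrays against 8.47 to 8.58 on the control arrays. It stayed at 8.31 to 8.35 with EtOH + EA and 8.29 to 8.40 with EtOH + RSV, and none was called against EtOH. Apoa1 and Asgr1 of 9 hepatocyte markers, Ptprc and Cd79b of 10 lymphocyte markers and Stab2 of 9 endothelial markers were also lower with EtOH, and none of 8 stellate cell markers was called. Against EtOH, Fcgr2b of the endothelial markers was higher with EtOH + EA (0.23, limma adjusted p = 0.048). DFW values have no true zero, so no marker can be called absent, and the part of these markers in the values of the subunits was not tested.

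In CAR-deficient liver no subunit was called in any of the 6 comparisons of diets (limma). For EtOH against control 0.178% of all probe sets were called higher and 0.167% lower, and 4 subunits had an unadjusted p under 0.05, as did 12.4% of all probe sets. No probe set was called in EtOH + EA or EtOH + RSV against EtOH, where 1 subunit each had such a p, against 8.5% and 5.46% of all probe sets. Against control, 0.0933% of probe sets were called higher and 0.0866% lower with EtOH + EA, and 0.0333% and 0.0267% with EtOH + RSV, with 1 and 5 such subunits against 11.7% and 10.3% of all probe sets, and 1 in EtOH + EA against EtOH + RSV, against 2.98%. The rank product gave 1 lower subunit for EtOH against control and 1 higher for EtOH + EA against EtOH, where it called 1.06% and 0.384% of all probe sets in those directions. With EtOH the mean was higher for 27 of 34 subunits, against 47.6% of all probe sets, and the median difference was 0.096, against -1.54e-05 over all probe sets. The 3 arrays for each diet limit the precision, and the SE of the difference was 0.15 for Psmb5 and Psmc4, against 0.043 and 0.041 in WT, whereas that of Psmd7 was smaller than in WT (0.035 against 0.093).

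The largest increases of the mean with EtOH in these mice were those of the alpha subunit Psma7 (11.28, 11.24 and 11.28 on control, 11.58, 11.67 and 11.64 with EtOH, 0.36 ± 0.13, limma adjusted p = 0.32), Psmd13 (9.33, 9.42 and 9.45 against 9.92, 9.81 and 9.53, limma adjusted p = 0.49) and Psmc5 (9.95, 10.07 and 10.02 against 10.44, 10.44 and 10.15, limma adjusted p = 0.36). In all 3 the EtOH arrays lay above the control arrays. Such a separation was seen in 13 subunits, against 9.37% of the represented genes, and the reverse in Psmb9 and Psmb10, against 11.2%. Psmb5 read 11.10, 11.17 and 11.23 on control and 11.48, 11.41 and 11.26 with EtOH (0.21, limma adjusted p = 0.62), while Psmc4 read 9.65, 9.66 and 9.66 and 10.00, 9.93 and 9.60, with EtOH replicate 3 below the control arrays.

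The means of all 7 beta subunits, all 6 ATPases, all 3 other base subunits and all 8 lid subunits were higher with EtOH in CAR-deficient mice, and those of all 3 immunoproteasome subunits were lower. The median differences were 0.15 for the beta subunits, 0.16 for the ATPases, 0.036 for the base, 0.11 for the lid and -0.3 for the immunoproteasome. The alpha subunits were divided, with 3 means higher and 4 lower. Psmb9 read 8.78, 9.13 and 9.24 on control and 8.56, 8.44 and 8.76 with EtOH, and Psmb10 read 9.89, 10.02 and 10.04 and 9.66, 9.57 and 9.82 (limma adjusted p = 0.68 and 0.51).

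With a polyphenol the CAR-deficient arrays of 1 diet disagreed. The median deviation of 33 subunits from the control mean was 0.27, -0.071 and 0.048 on EtOH + EA replicates 1, 2 and 3 and 0.06, 0.11 and 0.3 on EtOH + RSV replicates 1, 2 and 3, against 0.066 to 0.14 on the EtOH arrays. Psmb5 shows it for EtOH + EA, at 11.75, 11.20 and 11.15, and Psmd14 for both, at 10.86, 10.18 and 10.44 with EtOH + EA and 10.39, 10.49 and 10.89 with EtOH + RSV. On EtOH + RSV replicate 3, where most subunits were highest, Psmb9 was lowest, at 7.99 against 9.44 and 9.48 on the other arrays of that diet. This array was among those of lowest correlation to the rest, and no comparison of these mice gave a called subunit without it or without any other 1 array.

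The genotypes cannot be compared on 1 scale, since DFW appears to have rescaled each probe set apart in each. Their interaction sets differences of unlike scale against each other, and for the 9 subunits compressed in WT and for Psma4, compressed in CAR-deficient mice, it holds little but the difference of the other genotype. In a test of the interaction over all 28 arrays no subunit was called for EtOH against control, EtOH + EA against EtOH or EtOH + RSV against EtOH (limma, lowest adjusted p = 0.069, 0.38 and 0.42), where 2.22%, 0.158% and 0% of 45011 probe sets were called. The lowest of these p belonged to Psma3, whose -0.27 is the turned value of its difference in CAR-deficient mice. Unadjusted p under 0.05 was reached by 2, 2 and 7 subunits, against 16%, 8.46% and 7.06% of all probe sets. For Psmb5 the difference of WT less CAR-deficient mice was 0.024 in the response to EtOH, with a 95% interval from -0.26 to 0.3, and for Psmc4 in the response to EtOH + EA against EtOH it was -0.19, from -0.47 to 0.089. Calls in WT and none in CAR-deficient mice therefore do not show that the genotypes respond differently, nor do these tests show that they respond alike.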

How the data were processed

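Liver RNA of 28 mice was measured on Affymetrix mouse arrays, 1 array for each, with diet and number as their GEO titles give them (WT EtOH arrays carry 1, 3, 4 and 5). The deposited values are on a log2 scale: the authors summarised the probe signals by DFW in R. The 2 genotypes appear to have been summarised apart, which the methods do not state. No read depth exists for arrays, and their number limits the precision. Of 45101 probe sets, 64 Affymetrix controls were left out, and 26 blank in CAR-deficient arrays were not tested there. Names came from the platform annotation: 34945 probe sets name 1 gene, 932 several and 9160 none.

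Diets were compared within a genotype, and genotypes by interaction, with limma 3.58.1 (lmFit and eBayes) in R 4.3.3, adjusted by Benjamini and Hochberg over all probe sets. Members and the 12 other gene lists were chosen with earlier results of these data known. Subunits called in EtOH against control or a polyphenol against EtOH were named with every array, and listed genes past the threshold there, up to 4 for a list. A comparison with EtOH shares its arrays with the others. Whether samples came from separate cages is not given, so p measures the spread between arrays. The alternatives were quantile normalization, probe sets above the median level, only the 2 diets compared, a replicate block, no variance moderation, the rank product (50 permutations), the probe set of largest SD and leaving out each array. Residuals of arrays with the same number correlated above 0.1 in each pair of CAR-deficient EtOH and control (0.288 to 0.41) and of WT EtOH + EA and control (0.157 to 0.568), and in no other comparison of diets in each pair. The block moved no count there by more than 1.5 times. Code was tested on simulated data. Promoter windows are from RefSeq, and figures were drawn with matplotlib 3.10.9.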

Additional observations from a re-analysis of the deposited data

Results flagged for a closer look

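In WT liver, 17 genes (the 14 subunits called against control or against EtOH and Psmb8, Psmb9 and Psmb10) were examined for 1 array that stands apart from the other 3 of its diet by Dixon's test, and 8 of 68 groups showed one. With independent and normal values about 1 in 20 groups would be flagged. The groups here share the same arrays and most genes were picked by their calls, so the count is not read as an excess. With EtOH + RSV, Psmc4 was high on replicate 1 (9.186, the others at 9.05 to 9.06), and Psmc5 (9.584) and Psmd6 (10.74) were high on replicate 4. Psmb9 was low on that same replicate 4 (8.008, the others at 8.68 to 8.73). With EtOH + EA, Psmd14 was low on replicate 3 (9.709) and Psmb8 on replicate 1 (8.47). On the control diet, Psmd1 (10.56) and Psmd11 (11.13) were high on replicate 1, the array of lowest correlation to the others in WT. Without it, EtOH against control gave 6 higher subunits and EtOH + EA against EtOH 6 lower.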

How the results depend on the processing

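For the 6 counts of called subunits above 0, 75 of 138 values under the alternatives stayed within 1.5 times the value reported, while the counts of 0 had little room to move. In WT, EtOH against control gave 7 higher subunits and 13 after quantile normalization, 1 with only the 2 diets in the fit, and 5 to 12 when 1 array was left out. Psmb5 kept this call under all 7 other alternatives and all 16 omissions. It has only 1 probe set, so the alternative of the probe set of largest SD could not change its call. EtOH + EA against EtOH gave 7 lower, 3 after quantile normalization, 0 with only the 2 diets, and 1 to 10 when 1 array was left out. Psmb2 reversed there after quantile normalization (0.0105). EtOH + RSV against EtOH gave no call in the fit reported, but 2 higher and 3 lower after quantile normalization, 1 lower among probe sets above the median level, 1 lower with the replicate block, 1 higher and 7 lower by the rank product, and 0 to 7 lower when 1 array was left out. The rank product orders probe sets by the size of the difference and takes no account of their spread. EtOH + EA against control gave 1 higher, and 8 after quantile normalization, 2 above the median level, 2 with only the 2 diets, 3 by the rank product, 3 with the probe set of largest SD, 0 to 2 higher and 0 to 4 lower without 1 array. EtOH + RSV against control gave 1 higher, and 9 after quantile normalization, 0 with only the 2 diets, 5 by the rank product, and 0 to 2 higher and 2 to 4 lower without 1 array. The rank product also gave 5 higher and 2 lower for EtOH + EA against EtOH + RSV, and in CAR-deficient mice 1 lower for EtOH against control and 1 higher for EtOH + EA against EtOH. The interaction for EtOH against control gave 1 subunit after quantile normalization. The cause of these changes was not tested.

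With the replicate block, EtOH against control in WT gave 6 higher (Psmb2 and Psmd13 were then not called) and EtOH + EA against EtOH 5 lower. Residuals of arrays with the same number correlated above 0.1 in each pair in 2 comparisons only. Of these, EtOH + EA against control gave 1 higher and 4 lower with the block, and CAR-deficient EtOH against control 0. The titles give only a number, and whether it marks a pairing of the arrays is not known in any comparison.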
